A study of Homo sapiens with 6 samples.

Results

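The 56 genes described here carry symbols that start with MRPL or MRPS and a number, the naming scheme of the mitochondrial ribosomal proteins, and they are 56 of the 12438 gene symbols in the deposited tables. Nascent RNA was measured by GRO-seq, in which nuclei are isolated and polymerases already on their templates are allowed to run on, so that only RNA in the making is labelled and sequenced. The cells were A375, an established human malignant melanoma line, treated for 48 h with 25 µM leflunomide, with 25 µM A771726 or with DMSO, the solvent, in 2 libraries a group. Leflunomide carries an isoxazole ring and is a prodrug; cells open the ring, which yields its active metabolite A771726, also called teriflunomide. The metabolite inhibits dihydroorotate dehydrogenase (DHODH), an enzyme of the inner mitochondrial membrane that works in pyrimidine synthesis. All groups came from this 1 line, and nothing in the labels says that the 2 libraries of a group came from separate cultures, so p values measure the spread between libraries, which may be technical.

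The mitochondrial ribosome makes the few proteins that mitochondrial DNA encodes, all of them core subunits of the respiratory chain and ATP synthase. Its RNAs come from mitochondrial DNA, but every protein of its large and small subunit is encoded by a nuclear gene, made in the cytosol and imported. Some of these proteins descend from bacterial ribosomal proteins, and others exist in mitochondria alone and cover or replace parts of the bacterial RNA.

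Of the 56 symbols, 54 belong to known mitoribosomal proteins, out of 77 on the list used, 35 in the large and 19 in the small subunit. MRPS18A and MRPS30 are named for the small subunit but sit in the large one and are counted there. By ancestry 36 have a bacterial homolog and 18 are mitochondrion-specific. The remaining 2, MRPL42P5 and MRPL45P2, are pseudogene symbols on non-coding rows, and their reads are uncertain because each resembles a functional gene (MRPL42 and MRPL45). The members fill 93 rows, 38 members have 1 row, and 14 of the 18 with several rows have the same gene body density in all of them.

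Promoter sequences of 49 members were taken from RefSeq (GRCh38.p14), 62 windows that run from 250 bases before to 50 bases after an annotated start; MRPL2, MRPL10, MRPL13, MRPL21, MRPL23, MRPL42P5 and MRPL45P2 have no window there. The 200 bases before the start are shown for 6 genes on which the comparisons below turn. MRPL28 had one of the highest density differences with both compounds, MRPL32 and MRPL52 were among the lowest with leflunomide, and MRPL24, MRPL44 and MRPL51 were among the lowest with A771726. Capitals mark 7-letter strings typical of factors that act at genes for mitochondrial proteins, on either strand: GCGCATG or CATGCGC for NRF1, CCGGAAG or CTTCCGG for the ETS family, and GATGGCG or CGCCATC for YY1. In these genome coordinates the windows are chr16:370539-370738 on the minus strand, chr7:42932176-42932375 on the plus strand, chr14:22829687-22829886 on the plus strand, chr1:156741089-156741288 on the minus strand, chr2:223957263-223957462 on the plus strand and chr12:6493263-6493462 on the minus strand.
MRPL28: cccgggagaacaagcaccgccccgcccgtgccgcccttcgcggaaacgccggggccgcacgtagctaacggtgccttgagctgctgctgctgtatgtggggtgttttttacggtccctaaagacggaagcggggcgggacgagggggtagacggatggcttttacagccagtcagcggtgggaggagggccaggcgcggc
MRPL32: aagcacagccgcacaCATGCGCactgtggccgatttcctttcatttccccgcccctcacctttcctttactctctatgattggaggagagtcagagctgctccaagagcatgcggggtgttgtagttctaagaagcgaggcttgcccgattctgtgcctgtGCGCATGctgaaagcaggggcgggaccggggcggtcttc
MRPL52: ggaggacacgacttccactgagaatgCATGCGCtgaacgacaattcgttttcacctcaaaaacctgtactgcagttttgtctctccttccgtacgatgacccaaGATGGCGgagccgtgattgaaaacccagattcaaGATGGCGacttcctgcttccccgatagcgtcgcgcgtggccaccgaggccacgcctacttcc
MRPL24: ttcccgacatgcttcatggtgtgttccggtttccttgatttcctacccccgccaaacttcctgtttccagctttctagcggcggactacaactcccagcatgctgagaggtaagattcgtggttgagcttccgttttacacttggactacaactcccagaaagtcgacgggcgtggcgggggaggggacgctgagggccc
MRPL44: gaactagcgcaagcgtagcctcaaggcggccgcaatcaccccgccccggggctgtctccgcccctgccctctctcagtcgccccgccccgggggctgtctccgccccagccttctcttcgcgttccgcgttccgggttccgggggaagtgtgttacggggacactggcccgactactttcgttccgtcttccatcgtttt
MRPL51: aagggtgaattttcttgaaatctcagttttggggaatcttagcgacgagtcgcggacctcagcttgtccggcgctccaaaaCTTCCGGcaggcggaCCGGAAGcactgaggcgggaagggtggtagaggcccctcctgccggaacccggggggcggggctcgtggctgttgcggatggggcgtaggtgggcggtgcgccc
The MRPL32 window holds 2 NRF1 strings, that of MRPL52 holds 1 NRF1 and 2 YY1 strings, and that of MRPL51 holds 2 ETS strings. Those of MRPL28, MRPL24 and MRPL44 hold none of the 3 strings in the bases shown. The full windows of 300 bases hold further strings outside the bases shown. These are an ETS string in MRPL28 and in MRPL52, an NRF1 string in MRPL24 and a YY1 string in MRPL32.

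Over all 62 member windows of 300 bases, the ETS string occurred in 26, which is 41.9%, against 10.3% of all 35116 RefSeq promoter windows and 16.4% of the 8206 windows of table genes past the density filter described below. The YY1 string occurred in 19.4% of member windows, against 4.20% of all windows and 6.74% of those of the table genes. The NRF1 string occurred in 8.07% of member windows, against 4.43% and 6.41% in the same 2 sets. The SP1 string GGGCGG (reverse CCGCCC) occurred in 62.9%, against 45.0% and 65.7%, the E-box CACGTG in 6.45%, against 7.26% and 9.49%, and the TATA string TATAAA (reverse TTTATA) in 4.84%, against 11.5% and 6.23%. None of these strings contains another, several windows can belong to 1 gene, and a match is a string of letters, not a bound site. The median GC content was 60.3% in member windows, 58.7% in all windows and 65% in those of the table genes.

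The tables give the authors' means over the 2 libraries of a group for read density in the promoter, read density in the gene body and the traveling ratio, which is promoter density over gene body density. In gene bodies the members stood above the typical gene: their median density was 0.0508 with leflunomide, 0.0329 with A771726 and 0.0533 in DMSO, against 0.0188 with leflunomide, 0.0128 with A771726 and 0.0196 in DMSO over all genes. By the mean of the 3 groups the highest were MRPL20 and MRPL34, bacterial-type proteins of the large subunit, MRPS34, a mitochondrion-specific protein of the small subunit, and MRPL53 and MRPL49, mitochondrion-specific proteins of the large subunit. MRPL20 had a mean density of 0.166 with leflunomide, 0.145 with A771726 and 0.277 in DMSO, and ranked 340th of all genes. The lowest were MRPS9, a small subunit protein, at 0.00655 with leflunomide, 0.0039 with A771726 and 0.0052 in DMSO, and the pseudogene rows MRPL45P2 and MRPL42P5. MRPL42P5 was listed at 0 with leflunomide. The melanoma line itself showed SOX10, a neural crest factor, at 0.330 with leflunomide, 0.273 with A771726 and 0.329 in DMSO. The pigment cell genes MITF, PMEL and MLANA stayed between 0.0046 and 0.0226. AXL, also looked up for the line, was at 0.0675 with leflunomide, 0.0544 with A771726 and 0.0544 in DMSO. TYR, DCT and TYRP1 were looked up too and were not found among the gene symbols.

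**Figure D1:**
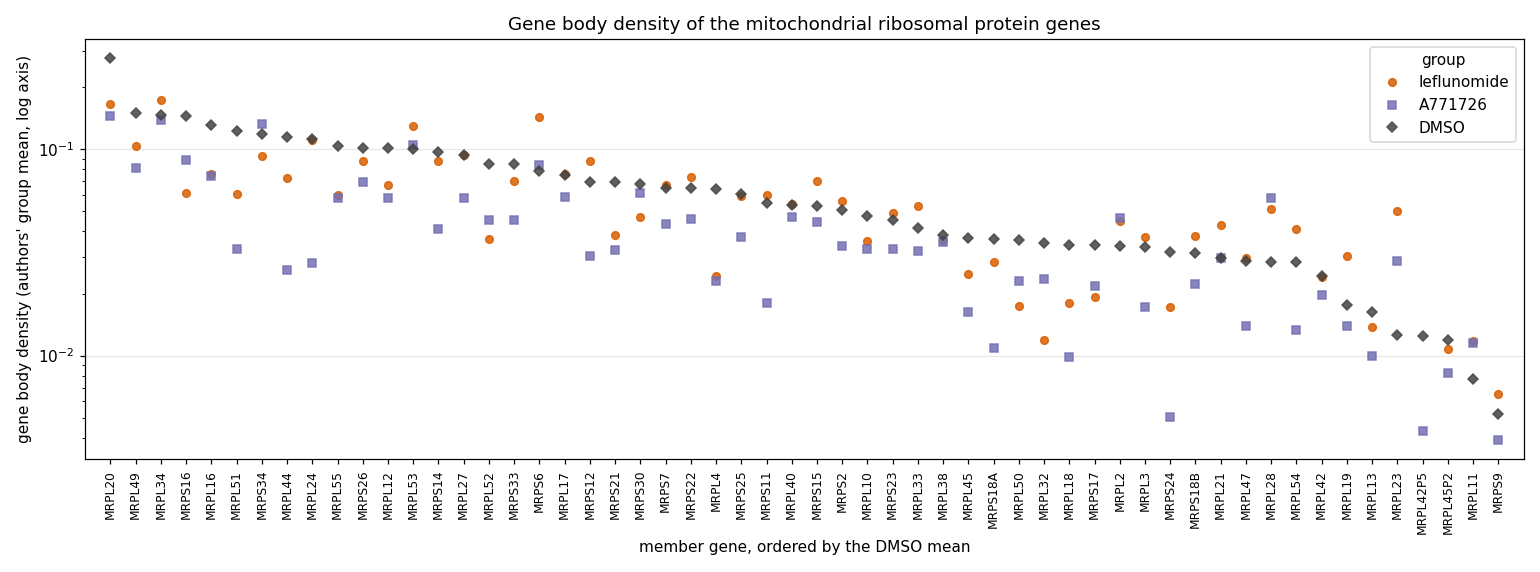
Gene body density of each member on a log axis, as the authors' mean for leflunomide (circles), A771726 (squares) and DMSO (diamonds), ordered by the DMSO mean. Members run from 0.277 for MRPL20 to 0.0052 for MRPS9 in DMSO; MRPL42P5 is listed at 0 with leflunomide and has no circle.

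Gene bodies were compared where the mean over the groups reached the 30th percentile, which left 8706 genes and 54 members; MRPS9 and MRPL42P5 fell below this filter. Changes are log2 ratios of the authors' means after adding 0.0022, so they understate the change of low genes, and the means alone allow no test. Library values were recovered from the means where the arithmetic left 1 solution, and library 1 is the one in which 1 promoter read is worth less. The 2 libraries could not be matched to the labels' replicates, and pair nothing across groups. A density measured over a pool of cells does not tell fewer transcribing cells from less transcription in each, and the scaling between libraries is not given in the sources used here.

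With leflunomide, the gene bodies of the members stood close to those in DMSO as a set: their median log2 change was -0.05, against -0.06 over all genes. At least 2-fold higher was 1 of 54 members (1.85%), against 1.84% of all genes, and at least 2-fold lower were 4 (7.41%), against 4.49%. The member that was higher was MRPL23, and those that were lower were MRPL32, MRPL4, MRPS16 and MRPL52. Large subunit genes had a median of -0.06 (35 genes) and small subunit genes of 0.01 (18 genes), while mitochondrion-specific genes had a median of -0.23 (18 genes) and those with a bacterial homolog of 0.03 (35 genes).

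MRPL23, a protein of the large subunit that in bacteria lines the mouth of the exit tunnel, had gene body densities of 0.0311 and 0.0693 with leflunomide, against 0.0175 and 0.0078 in DMSO. Both leflunomide libraries lay above both DMSO libraries, and the log2 change of the means was 1.82. With A771726 its libraries could not be recovered, and the authors' mean was 0.0286, a log2 change of 1.05 against DMSO. MRPL28, another bacterial-type large subunit protein, had 0.0566 and 0.0460 with leflunomide, 0.0270 and 0.0893 with A771726, and 0.0357 and 0.0212 in DMSO. The leflunomide libraries lay above both DMSO libraries, and the A771726 libraries, further apart than those of the other groups, overlapped them. MRPS6, a small subunit protein, had 0.150 and 0.137 with leflunomide, 0.0971 and 0.0702 with A771726, and 0.0851 and 0.0717 in DMSO; the leflunomide libraries lay above all others. MRPL19, a large subunit protein, had 0.0321 and 0.0286 with leflunomide, 0.0143 and 0.0135 with A771726, and 0.0232 and 0.0120 in DMSO, with the leflunomide libraries again above all others. MRPL21, also of the large subunit, had a log2 change of 0.50 with leflunomide and of 0.01 with A771726.

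MRPL32, a large subunit protein that is cut by the m-AAA protease before it joins the ribosome, had 0.0101 and 0.0137 with leflunomide, 0.0228 and 0.0240 with A771726, and 0.0288 and 0.0418 in DMSO. The 3 groups did not overlap, with leflunomide lowest and DMSO highest, and the log2 change of the means was -1.41 with leflunomide and -0.55 with A771726. MRPL4, a bacterial-type large subunit protein, had 0.0174 and 0.0314 with leflunomide, 0.0174 and 0.0287 with A771726, and 0.0682 and 0.0608 in DMSO. Both compounds lay below both DMSO libraries and overlapped each other, with log2 changes of -1.33 and -1.40. MRPL52, a mitochondrion-specific large subunit protein, had 0.0477 and 0.0258 with leflunomide, 0.0459 and 0.0454 with A771726, and 0.0869 and 0.0834 in DMSO, so that every library of both compounds lay below DMSO. MRPS16, a bacterial-type small subunit protein, had 0.0604 and 0.0620 with leflunomide, 0.132 and 0.0459 with A771726, and 0.160 and 0.130 in DMSO. Here the leflunomide libraries lay below DMSO, and the A771726 libraries overlapped both other groups.

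With A771726, most member gene bodies had a lower density than in DMSO, and so had most genes of the table. The members' median log2 change was -0.61, against -0.52 over all genes. Below 0 were 46 of the 54 members, and 7445 of all 8706 genes. At least 2-fold lower were 12 members (22.2%), against 18.5% of all genes, and at least 2-fold higher was 1 (1.85%), against 0.839%. After centring on the median gene, 6 of the 54 members were at least 2-fold lower and 2 were at least 2-fold higher. Over all 8706 genes the numbers after centring were 499 lower and 313 higher. The large subunit genes had a median of -0.61 and the small subunit genes of -0.58. Mitochondrion-specific genes had one of -0.57 and those with a bacterial homolog one of -0.61, so the split by ancestry with leflunomide did not recur. The 12 were MRPS24, MRPL44, MRPL24, MRPL51, MRPL18, MRPS18A, MRPS11, MRPL4, MRPS14, MRPS12, MRPL45 and MRPS21, from -2.23 for MRPS24 to -1.04 for MRPS21. The comparisons with leflunomide and with A771726 share the DMSO libraries, so a low or high DMSO value moves both.

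**Figure D2:**
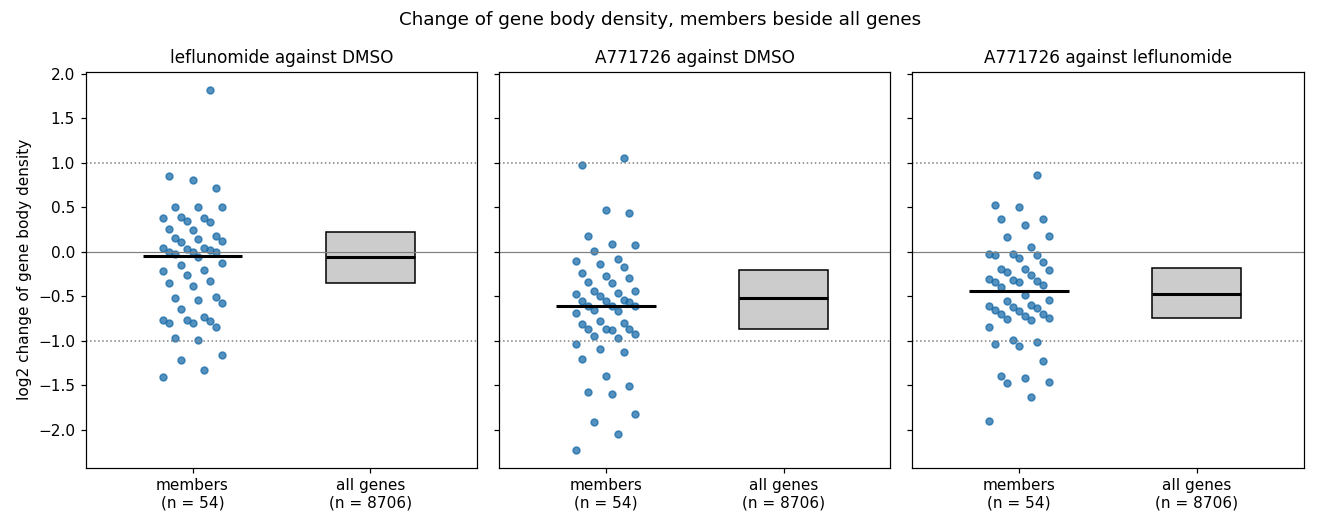
Log2 change of gene body density for 54 members (points, with their median as a line) beside all 8706 genes (box from lower to upper quartile, line at the median) in the 3 comparisons; dotted lines mark a 2-fold change. The members' medians of -0.05, -0.61 and -0.44 lie near those of all genes at -0.06, -0.52 and -0.47, and single members spread to either side.

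MRPL44, a mitochondrion-specific large subunit protein that resembles RNase III enzymes, had 0.0422 and 0.0101 with A771726 and 0.0736 and 0.0717 with leflunomide, against 0.0908 and 0.139 in DMSO. The 3 groups did not overlap, and A771726 was lowest. MRPL24, a bacterial-type large subunit protein, had 0.0508 and 0.0054 with A771726 and 0.164 and 0.0589 with leflunomide, against 0.101 and 0.123 in DMSO. The A771726 libraries lay below all others, and the leflunomide libraries lay on both sides of DMSO. MRPL51, a mitochondrion-specific large subunit protein, had 0.0561 and 0.0097 with A771726 and 0.0863 and 0.0351 with leflunomide, against 0.180 and 0.0647 in DMSO. A771726 lay below DMSO, although the DMSO libraries themselves were far apart. In all 3 genes library 2 was the lower of the A771726 pair, and over the 36 members compared by library the median density was 0.0429 in A771726 library 1 and 0.0284 in library 2, against 0.0614 and 0.0477 in the DMSO libraries. In a limma fit over 3427 genes that holds these members, the median log2 change with A771726 against DMSO was -0.55, and without A771726 library 2 it was -0.45, against -0.54 and -0.38 over all genes of that fit.

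In MRPS18A, the S18-type protein of the large subunit, gene body density was 0.0149 and 0.0068 with A771726 and 0.0356 and 0.0210 with leflunomide, against 0.0364 and 0.0371 in DMSO. The A771726 libraries were below all others, and the leflunomide libraries were below DMSO by a small margin in library 1. MRPS11, a small subunit protein, had 0.0236 and 0.0122 with A771726, 0.0615 and 0.0585 with leflunomide and 0.0568 and 0.0535 in DMSO, which puts A771726 below and leflunomide above DMSO. MRPS14, a small subunit protein, had 0.0591 and 0.0228 with A771726, 0.0930 and 0.0820 with leflunomide and 0.0836 and 0.111 in DMSO, with A771726 below all others. MRPL18, a bacterial-type large subunit protein, had 0.0162 and 0.0035 with A771726, 0.0254 and 0.0106 with leflunomide and 0.0246 and 0.0439 in DMSO; A771726 lay below DMSO and overlapped leflunomide. MRPS12, the S12 protein of the decoding centre, had 0.0461 and 0.0150 with A771726, 0.0360 and 0.140 with leflunomide and 0.0603 and 0.0786 in DMSO. Its A771726 libraries were below DMSO, and its leflunomide libraries lay on either side. MRPL45, a mitochondrion-specific large subunit protein, had 0.0110 and 0.0215 with A771726, 0.0231 and 0.0266 with leflunomide and 0.0364 and 0.0379 in DMSO, and MRPS21, a bacterial-type small subunit protein, had 0.0293 and 0.0359 with A771726, 0.0446 and 0.0327 with leflunomide and 0.0624 and 0.0759 in DMSO. In both genes all libraries of both compounds were below DMSO. MRPS24, an S3-type small subunit protein, was not solved with A771726, where its mean ratio was infinite. Such a ratio needs 1 library with a gene body density of 0, so its change rests on a value at the floor. The authors' mean was 0.00505 with A771726, against 0.0172 with leflunomide and 0.0317 in DMSO.

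At the upper end with A771726 stood MRPL23 and MRPL28, described above, with log2 changes of 1.05 and 0.98. MRPL11, which forms the base of the factor-binding stalk, showed 0.0067 and 0.0164 with A771726 and 0.0081 and 0.0073 in DMSO. MRPL2, a protein near the peptidyl transferase centre, showed 0.0653 and 0.0276 with A771726 and 0.0257 and 0.0420 in DMSO. The libraries overlapped DMSO in both. MRPS34 had a log2 change of 0.17.

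**Figure D3:**
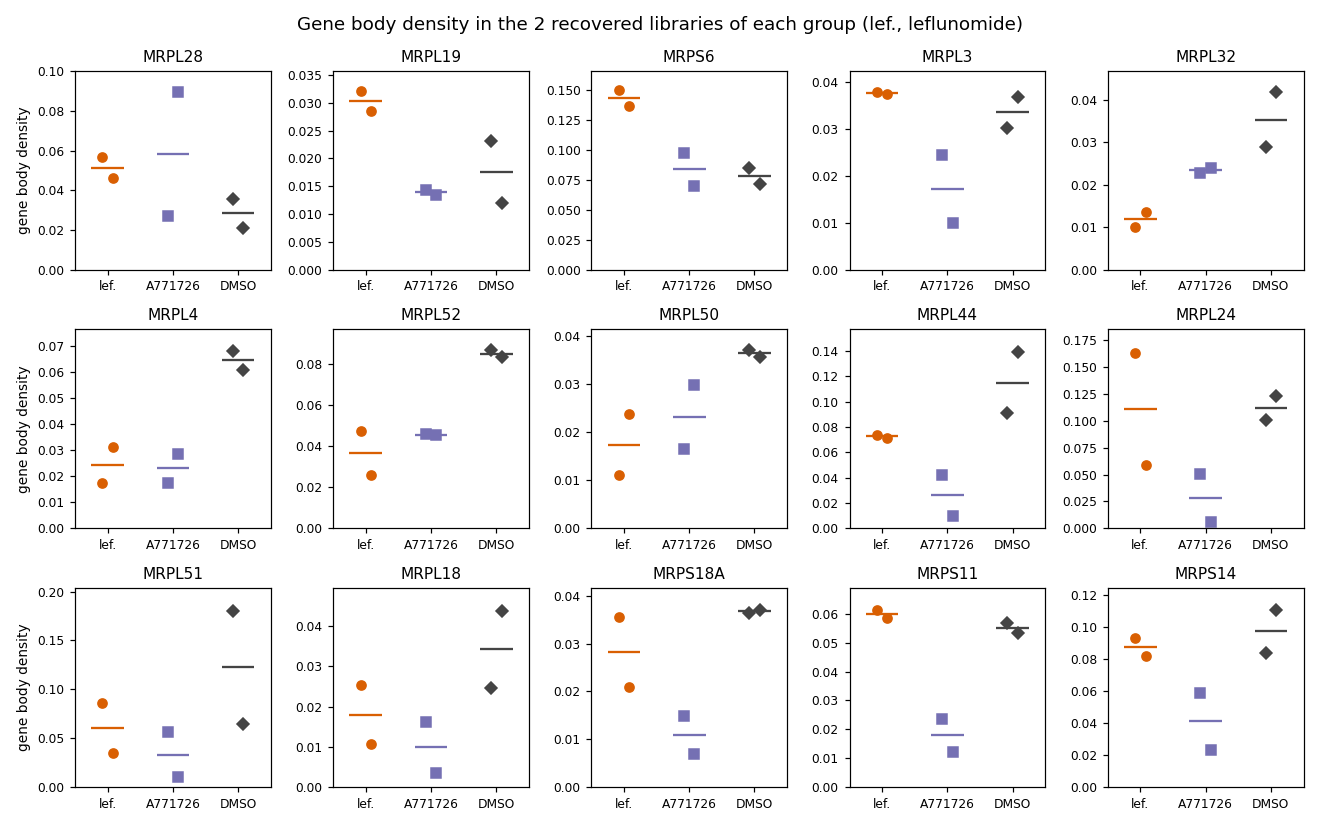
Gene body density in each recovered library of 15 members, with leflunomide on the left, A771726 in the middle and DMSO on the right of each panel; the line is the mean of the 2 libraries and each vertical axis starts at 0. MRPL32, MRPL4, MRPL52, MRPL50, MRPL44 and MRPS18A lie below DMSO in every library of both compounds, and MRPS11 lies below DMSO with A771726 but not with leflunomide.

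Libraries were recovered in both groups for 50 members with leflunomide and DMSO, and for 47 with A771726 and DMSO. With leflunomide both libraries lay below both DMSO libraries in 14 of 50 members (28%), against 20.8% of all recovered genes, and above them in 9 (18%), against 14.4%. With A771726 both lay below DMSO in 29 of 47 members (61.7%), against 54.7%, and above in 0, against 2.3%. Members below DMSO in every library of both compounds were MRPL4, MRPL44, MRPL52, MRPL32 and MRPS18A, the largest by summed change, and MRPS21, MRPL20, MRPL45, MRPL16, MRPL50 and MRPL49. The share of all recovered genes below DMSO with both compounds was not computed, so the list cannot be read as particular to the members. MRPL50, a mitochondrion-specific large subunit protein, had 0.0110 and 0.0238 with leflunomide, 0.0165 and 0.0297 with A771726, and 0.0370 and 0.0357 in DMSO.

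A test was possible for the 36 members past the gene body filter whose libraries were known in every group, in a limma fit over 3427 genes with all 6 libraries; a gene with no promoter reads in a group could not enter it. At an adjusted p under 0.05 over all genes, limma called 0 members and 0 of 3427 genes (0%) in each of the 3 gene body comparisons. At an unadjusted p under 0.05, 5 of 36 members passed with leflunomide against DMSO (13.9%), against 4.87% of all genes, 1 of them higher and 4 lower. The number fell without either leflunomide library and without either DMSO library. The share of all genes fell too in these refits, except without DMSO library 1, where it rose. With A771726 against DMSO 10 passed (27.8%), all lower, against 21.8% of all genes. That number was 4, all lower, without A771726 library 2 (12.4% of genes) and without DMSO library 2 (15.4%). After each library was centred on its median it was also 4 (8.17% of genes), 1 higher and 3 lower. The smallest adjusted p among members was 0.884 with leflunomide, for MRPL32 and MRPL52, and 0.129 with A771726, for MRPS11. For MRPS11 with A771726 the fitted log2 change was -1.57 (SE 0.37), for MRPL44 it was -2.29 (SE 0.59, limma adjusted p = 0.139) and for MRPS18A it was -1.65 (SE 0.42, limma adjusted p = 0.136). For MRPL32 with leflunomide it was -1.40 (SE 0.34). Without A771726 library 1, limma called 3 members lower with A771726 than in DMSO, MRPL44 at -3.22 (adjusted p = 0.0424), MRPL24 at -3.90 (adjusted p = 0.0478) and MRPS11 at -1.99 (adjusted p = 0.0498), among 84 genes called; that fit takes the lone A771726 library to vary like the other groups. Without any other single library, limma called 0 members in gene bodies.

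A771726 and leflunomide, the ring-opened metabolite and its parent, were compared directly at 25 µM and 48 h, 1 pair of compounds. Gene body density was lower with A771726 across the table: the members' median log2 change was -0.44, against -0.47 over all genes. At least 2-fold lower were 10 members (18.5%), against 12.4% of all genes, and at least 2-fold higher were 0, against 1.03%. The lowest were MRPL24 at -1.90, MRPS11 at -1.63, MRPL54, a mitochondrion-specific large subunit protein, at -1.47, MRPS12 at -1.46 and MRPS24 at -1.42, followed by MRPL44, MRPS18A, MRPS14, MRPL3 and MRPL19. Small subunit genes had a median of -0.63 (18 genes) and large subunit genes of -0.33 (35 genes). By ancestry the median was -0.34 for mitochondrion-specific genes and -0.60 for those with a bacterial homolog. Highest were MRPL32 at 0.86, MRPS16 at 0.52, MRPS34 at 0.50, MRPL50 at 0.37 and MRPS30 at 0.36.

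Both A771726 libraries lay below both leflunomide libraries in 21 of 48 members (43.8%), against 55.1% of all recovered genes. They lay above in 2, MRPL32 and MRPS34 (4.17%), against 2.28%. For MRPS34 the libraries had 0.143 and 0.124 with A771726 and 0.0915 and 0.0950 with leflunomide. MRPL54 had 0.0049 and 0.0218 with A771726 and 0.0493 and 0.0327 with leflunomide, and MRPL3, a protein close to the peptidyl transferase centre, had 0.0245 and 0.0099 with A771726 and 0.0378 and 0.0373 with leflunomide. In both genes A771726 was below leflunomide in every library.

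The limma fit gave MRPS11 a log2 change of -1.69 between the compounds (95% interval -2.56 to -0.82) and MRPL32 one of 0.87 (95% interval 0.09 to 1.65), both with an adjusted p of 0.318. An unadjusted p under 0.05 was reached by 10 of 36 members (27.8%), against 15.6% of all genes, 9 lower and 1 higher. That number fell to 1 without A771726 library 2 (7.73% of genes), to 1 without leflunomide library 1 (5.57%) and to 3 without leflunomide library 2 (6.89%), all lower. After each library was centred on its median it was 3 (5.57% of genes), 2 higher and 1 lower. For MRPL28, fitted at -0.04, the interval ran from -1.36 to 1.27, and for MRPL2, fitted at -0.05, from -1.16 to 1.05, which spans more than 2-fold either way. For MRPL4 the fit that also takes genes whose libraries are known but not their order gave -0.06 (SE 0.40, adjusted p = 0.929).

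Promoter density rests on few reads. One promoter read was worth 0.0347 and 0.0376 with leflunomide, 0.0241 and 0.0313 with A771726 and 0.0438 and 0.0520 in DMSO, and the members whose promoter values are whole reads summed to 166 and 133 reads over 33 members with leflunomide, 265 and 166 over 34 with A771726, and 131 and 55 over 35 in DMSO. Among those members the median was 3 and 3 reads with leflunomide, 8 and 3 with A771726 and 2 and 0 in DMSO. These members differ between groups and leave out those whose promoter value is not whole reads. Over the 36 members compared by library, the median promoter density was 0.215 and 0.207 with leflunomide. It was 0.2165 and 0.169 with A771726, and 0.241 and 0.078 in DMSO. In DMSO library 2, 14 of 36 members (38.9%) had a promoter value of 0, against 0 of 36 in DMSO library 1. Over all genes compared by library, 31.7% had a value of 0 in DMSO library 2 and 7.73% in DMSO library 1. In A771726 library 2 it was 7 of 36 members (19.4%), against 29.8% of all genes. A count of 0 still allows up to 3 reads. In a limma fit over 3619 genes that holds 37 members, the members' median promoter change was 0.65 with leflunomide and 0.06 with A771726. Over all genes of that fit it was 0.29 with leflunomide and -0.04 with A771726. Without DMSO library 2 the members' medians were -0.21 and -0.74, against -0.18 and -0.54 over all genes in that refit. The direction of the members' median promoter change against DMSO thus turned when this library was left out. With leflunomide the median over all genes turned too.

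Of the 55 members past the promoter filter, 9 (16.4%) were at least 2-fold higher with leflunomide than in DMSO, against 30.6% of all genes, and 8 (14.5%) at least 2-fold lower, against 16%. With A771726 against DMSO 6 (10.9%) were higher, against 20.8% of all genes, and 12 (21.8%) lower, against 26%. Between A771726 and leflunomide 5 (9.09%) were higher, against 13.5%, and 13 (23.6%) lower, against 30.6%. The members' median promoter density was 0.162 with leflunomide, 0.159 with A771726 and 0.137 in DMSO, against 0.0347 with leflunomide, 0.0203 with A771726 and 0.0219 in DMSO over all genes. The median log2 change was 0.09 with leflunomide, -0.16 with A771726 and -0.31 between A771726 and leflunomide, against 0.22, 0.00 and -0.30 over all genes. With A771726 the median was -0.61 over the 18 mitochondrion-specific genes and -0.03 over the 36 with a bacterial homolog. With leflunomide these medians were 0.05 and 0.13, and between A771726 and leflunomide -0.32 and -0.27.

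MRPL18 had 10 and 14 promoter reads with leflunomide, 1 and 1 with A771726 and 1 and 0 in DMSO. Its leflunomide libraries stood well above all others, and the limma log2 change with leflunomide was 3.77 (SE 1.47, adjusted p = 0.994). The promoter of MRPS6 had densities of 0.223 and 0.226 with leflunomide, 6 and 13 reads with A771726, and 2 and 0 reads in DMSO, so that both compounds lay above DMSO. MRPS30, a mitochondrion-specific large subunit protein, had 5 and 4 reads with leflunomide and 4 and 0 with A771726, whereas its DMSO densities of 0.311 and 0.676 were above all of those. Its limma log2 change was -3.43 with A771726 (SE 1.11, adjusted p = 0.392). MRPL49 had the most promoter signal of all members with A771726, 26 and 20 reads, and 14 and 8 reads with leflunomide, against densities of 1.15 and 0.364 in DMSO. MRPL21 had 7 and 4 reads with leflunomide and was listed at 0 in the means of A771726 and of DMSO. Among the members recovered in both groups, both leflunomide libraries lay above both DMSO libraries in 10 of 51 promoters (19.6%), against 16% of all recovered genes, and below in 10 (19.6%), against 9.98%. Both A771726 libraries lay above DMSO in 5 of 48 (10.4%), against 10.4%, and below in 13 (27.1%), against 14.7%. Between A771726 and leflunomide they lay above in 5 of 49 (10.2%), against 7.47%, and below in 14 (28.6%), against 21.1%.

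Called promoters numbered 12 of 3619 genes (0.332%) with leflunomide and 13 (0.359%) with A771726 against DMSO, and 0 (0%) between the compounds, in limma at an adjusted p under 0.05. Among the 37 members in the fit 0 were called. At an unadjusted p under 0.05 there were 3 members (8.11%, against 2.43% of all genes), 2 (5.41%, against 3.51%) and 1 (2.70%, against 2.21%) in these comparisons. Leaving out 1 library at a time moved these numbers, and the shares over all genes moved too. Against DMSO, members and all genes alike passed most often without DMSO library 1. Without DMSO library 1, limma called MRPL24 (log2 change 3.85, adjusted p = 0.0251) and MRPL33 (4.29, adjusted p = 0.0366) higher with leflunomide, among 45 of 3619 genes called. The DMSO library that remains had a promoter density of 0.0101 at MRPL24 and 0 reads at MRPL33, so these changes depend on the pseudocount and bound nothing. Without A771726 library 1, it called MRPS30 lower with A771726 (-4.78, adjusted p = 0.0199), among 19 of 3619 genes called, and the A771726 library that remains had 0 reads there. Each such fit takes the lone library to vary like the other groups.

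The traveling ratio could be compared for 49 members out of 5173 genes past the promoter and gene body filters whose ratio was neither 0 nor infinite in any group. No gene of the tables has a DMSO ratio above 7.50, and the members' DMSO ratios reached 7.09. This limit does not hold for the compounds, where ratios over all genes reached 208 with leflunomide and 550 with A771726. A limit on DMSO alone can push ratio changes against DMSO upward, for members and all genes alike. The members' median ratio was 3.89 with leflunomide, 3.78 with A771726 and 3.34 in DMSO. At least 2-fold higher with leflunomide than in DMSO were 13 members (26.5%), against 27.9% of all genes, and at least 2-fold lower were 7 (14.3%), against 15.3%. With A771726 against DMSO 17 (34.7%) were higher, against 34.6%, and 4 (8.16%) lower, against 17.1%. Between A771726 and leflunomide 13 (26.5%) were higher, against 26.9%, and 6 (12.2%) lower, against 20.9%. The median log2 change with A771726 was 0.78, against 0.42 over all genes, and 0.33 over the 34 members whose ratio was at most 7.50 in every group, against 0.09 over all such genes. With leflunomide it was 0.31, against 0.27. Over the 36 members that limma could fit by library, the median ratio change was 0.87 with A771726 and 0.89 with leflunomide, against 0.50 and 0.32 over all genes of that fit. Without DMSO library 2 the members' medians were -0.09 with A771726 and -0.11 with leflunomide, against 0.14 and 0.01 over all genes, so their direction turned.

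**Figure D4:**
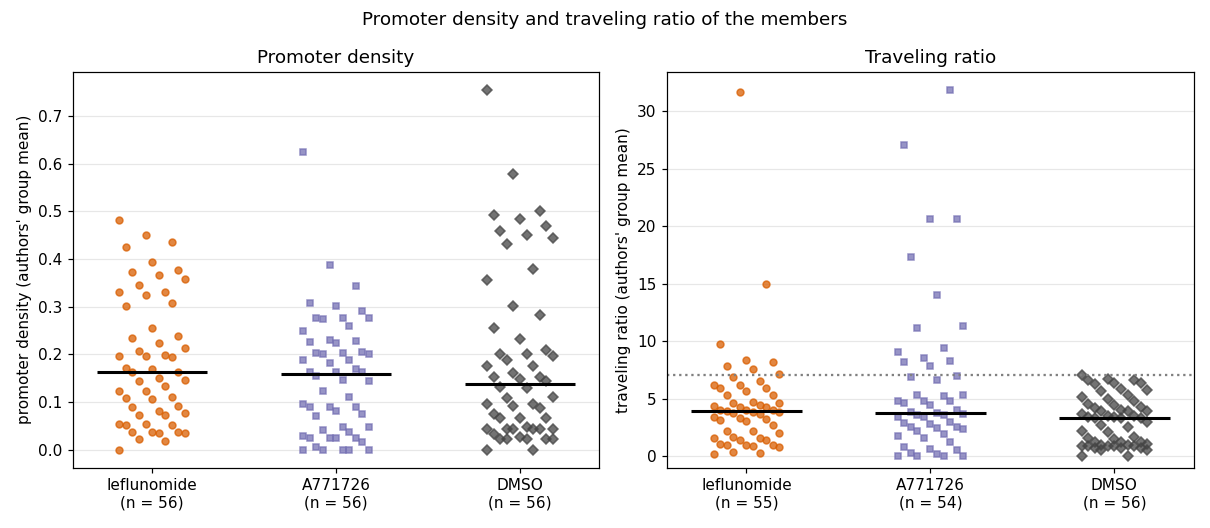
Promoter density (left) and traveling ratio (right) of the members as the authors' group means, in the order leflunomide, A771726, DMSO, with the median as a line; ratios that are not finite are left out. In DMSO no member exceeds a ratio of 7.09 (dotted line), but no gene of the tables has a DMSO ratio above 7.50. That limit does not hold for the compounds, where single members reach 31.7 with leflunomide and 31.8 with A771726, so the highest ratios cannot be compared between groups.

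The highest ratio change with leflunomide was that of MRPL18, whose ratio was 31.7 with leflunomide, against 0.890 in DMSO, a log2 change of 5.15 in which promoter reads were high and gene body density low. MRPL3 followed at 2.17 and MRPL12, which also binds the mitochondrial RNA polymerase, at 1.99. The lowest were MRPS23, a small subunit protein, at -3.07, with 1 and 1 promoter reads with leflunomide against 7 and 5 in DMSO, MRPS18A at -2.70 and MRPS12 at -2.16. With A771726 the highest were MRPL3 at 4.27, with 6 and 7 promoter reads against 1 and 0 in DMSO, MRPL24 at 3.17 and the pseudogene row MRPL45P2 at 2.98. The MRPL24 ratio was 31.8 with A771726, against 3.53 in DMSO, while its promoter had 12 and 10 reads with A771726 and its gene body was among the lowest. The lowest were MRPL4 at -3.62, with promoter densities of 0 and 0.01 with A771726 against 0 and 5 reads in DMSO, MRPS30 at -3.19 and MRPL38, a mitochondrion-specific large subunit protein, at -2.92. For 36 members limma tested the ratio of library densities and called 0 of them and 0 of 3427 genes (0%) in each comparison, with 1 member at an unadjusted p under 0.05 for leflunomide (2.68% of genes), 4 for A771726 (5.08%) and 0 between the compounds (2.74%). These numbers moved when 1 library at a time was left out, and the shares over all genes moved too. Against DMSO, members and all genes alike passed most often without DMSO library 1. Without DMSO library 1, limma called the ratio of MRPL18 higher with leflunomide (log2 change 5.97, adjusted p = 0.0343), among 4 of 3427 genes called, and that of MRPL24 higher with A771726 (6.18, adjusted p = 0.0185), among 30 of 3427. The DMSO library that remains had 0 promoter reads at MRPL18 and a promoter density of 0.0101 at MRPL24, so these changes depend on the pseudocount, and the lone library is taken to vary like the other groups.

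In the RefSeq annotation, 23 of the 62 member windows (37.1%), at 18 genes, had an opposite-strand gene start within 1000 bases upstream. The share was 17.9% of all windows and 22% of those of the table genes. Whether the deposited reads were counted by strand is not given in the sources used here, so reads of such a pair may not be told apart near the shared start. The neighbour was measured past the gene body filter for 8 members. MRPL32 had gene body log2 changes of -1.41 with leflunomide and -0.55 with A771726, and its neighbour PSMA2, a proteasome subunit, had 0.16 with leflunomide and -0.33 with A771726. MRPL49 had -0.53 with leflunomide and -0.87 with A771726, and its neighbour FAU, which encodes a ubiquitin-like protein fused to a cytosolic ribosomal protein, had -1.69 with leflunomide and -0.62 with A771726. MRPS12 had 0.34 with leflunomide and -1.13 with A771726, and SARS2, the mitochondrial seryl-tRNA synthetase, had -0.71 with leflunomide and -0.69 with A771726. In these 3 pairs, picked after their values were seen, the partners' changes differed by more than 2-fold with leflunomide and by less with A771726. In the other 5 pairs, MRPL27 with EME1, MRPL40 with HIRA, MRPL50 with ZNF189, MRPS18B with PPP1R10 and MRPS7 with GGA3, they differed by less than 2-fold with both compounds.

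The other genes of mitochondrial translation were taken from 5 lists. Of the mitoribosomal proteins under other symbols, 6 were measured, none at least 2-fold higher or lower with either compound, with medians of -0.01 with leflunomide and -0.56 with A771726. The 7 translation factors had medians of -0.05 with leflunomide and -0.40 with A771726, and none at least 2-fold higher or lower. Of 14 ribosome assembly factors 1 was at least 2-fold lower with A771726, the rRNA methyltransferase MRM1 at -1.09, with medians of -0.03 with leflunomide and -0.63 with A771726. Of 10 mitochondrial aminoacyl-tRNA synthetases 1 was at least 2-fold lower with A771726, CARS2 for cysteine at -1.13, and 2 were so against leflunomide, MARS2 for methionine at -1.58 and AARS2 for alanine at -1.43. MPV17L2, an assembly factor, was at -1.21 in that comparison.

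Among 8 genes that transcribe, process or maintain mitochondrial DNA and RNA, all had a log2 change below 0 with leflunomide, with a median of -0.33; over all genes 4817 of 8706 were below 0, with a median of -0.06. RG9MTD1, a subunit of mitochondrial RNase P also called TRMT10C, was at -1.09 with leflunomide and -1.01 with A771726. POLG, the mitochondrial DNA polymerase, was at -1.33 with A771726, and LRPPRC, which stabilises mitochondrial mRNAs, was at -1.03. For the 68 cytosolic ribosomal protein genes the gene body medians were -0.40 with leflunomide and -0.93 with A771726. Those of the mitochondrial ones were -0.05 and -0.61, near the -0.06 and -0.52 over all genes, and the difference between the sets was not tested. At least 2-fold lower with A771726 were 31 of the cytosolic genes (45.6%), beside 12 of 54 mitochondrial ones (22.2%) and 18.5% of all genes.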

How the data were processed

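GRO-seq libraries from A375 cells were read from the authors' deposited tables. The promoter and gene body columns hold signal, read densities averaged by the authors over the 2 libraries of a group, per the file headers; the other columns hold the mean traveling ratio and its fold over DMSO, also averaged by the authors before they were deposited. The headers write A771762, read as A771726. The submitters' processing notes name hg18, Bowtie 0.12.9 and bedtools; for windows, scaling, strand and annotation the sources used here give nothing. Gene body values reach 0.0001, far below the value of 1 promoter read, and were read as densities per length.

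Where a symbol had several rows, that with the largest gene body mean stands for the gene. Only genes whose mean over the groups reached the 30th percentile were compared (8706 gene bodies, 8837 promoters), and pseudocounts were 0.0022 for gene bodies and 0.01735 for promoters. The members, gene lists and tests were chosen with earlier results of these data known.

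Library values were solved from the means, the mean ratio and the 4 decimals to which library densities are written. A single solution was found for 93.6%, 93.5% and 90.3% of rows with a promoter value and ratio for leflunomide, A771726 and DMSO; 77.6%, 80.7% and 78.3% of promoter values lay on whole reads, against 0.301%, 0.157% and 0.0280% after a shift by part of a read (within the rounding of the 4 decimals). Solved in every group were 47 members, and the library was known for 37. The sources used here hold no total depths. limma 3.58.1 (R 4.3.3) was fitted to log2 library values of all such genes, with Benjamini-Hochberg adjustment over all genes tested; for the ratio it used the difference of the 2 log densities. The fits were tested on simulated data. Genes named in the text are the 5 highest and 5 lowest members in each gene body comparison and all at least 2-fold changed, the 3 highest and lowest ratios against DMSO, the 5 highest and 3 lowest densities, members separated from DMSO with both compounds, and related genes at least 2-fold changed. Other members, such as MRPL49, MRPL50 and MRPL33, were named after their values were seen. Promoter windows and starts came from RefSeq tables for GRCh38.p14, matched by symbol, and were not joined to the hg18 densities by position. Python 3.11.15 with numpy 2.4.6 and pandas 2.3.3 was used.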

Additional observations from a re-analysis of the deposited data

How the results depend on the processing

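The members' median changes moved by less than the spread between libraries in 47 recomputations and by more in 4 (other pseudocounts, filters, transcript rows, centring, a limit on the ratio). The exceptions were gene body density after centring on the median gene, where the median was -0.088 for A771726 against DMSO and 0.033 for A771726 against leflunomide, and the traveling ratio for A771726 against DMSO, at 0.36 after centring and 0.33 where ratios were limited to the highest DMSO value. The cause was not tested, apart from centring, which by construction takes off the median of all genes (-0.52, -0.47 and 0.42).

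The number of members called by limma was 0 in 73 recomputations and above 0 in 5. Leaving out 1 library at a time it ran from 0 to 3 for gene body density with A771726 against DMSO, 0 to 2 for promoter density with leflunomide against DMSO, 0 to 1 for promoter density with A771726 against DMSO, and 0 to 1 for the traveling ratio with leflunomide and with A771726 against DMSO. Taking in genes whose library order is not known, an alternative chosen after seeing the data, gave 0 calls among 46 members in gene bodies. For single members, 233 recomputed changes moved by less than their spread and 18 by more, and none of those past 2-fold changed sign.

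No paired analysis was possible because the columns are group means without replicate letters, and the recovered libraries were not matched to replicates a and b.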
